A study of Homo sapiens with 20 samples.

Results

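SNU16 is an established human gastric carcinoma cell line, negative for Epstein-Barr virus (EBV-) and without the CpG island methylator phenotype (CIMP-), the dense promoter methylation found in a subset of gastric tumours. Its response to decitabine (DCB) is described from its 4 RNA sequencing libraries of 20 in the series, which were taken by their labels: 2 libraries after 72 h of DCB and 2 after 72 h of the solvent DMSO. No transgene, deletion or other agent is named for either group, and both were grown in the same RPMI medium with serum. The other 4 lines, YCCEL1, SNU719, AGS and HGC27, have the same pair of groups and enter only where the SNU16 response was compared with theirs. The study gives YCCEL1 and SNU719 as positive for the virus (EBV+) and for the methylator phenotype (CIMP+). It gives AGS as EBV- and CIMP+, and HGC27 as CIMP-. A mean over these lines therefore joins lines of unlike status. Whether a group's 2 libraries are independent cultures is not stated, and the p-values therefore refer to the spread between these samples alone, which may be technical.

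DCB is an analogue of cytidine. Once incorporated in DNA it traps DNA methyltransferases, so that methylation is lost as cells divide. Methylated promoters are a known means by which body cells keep germline genes silent, such as the cancer-testis antigens and the genes of meiosis and of the piRNA pathway. Levels are normalized counts, that is, read counts that the authors scaled between libraries, and they are comparable for 1 gene between libraries, not between genes. Changes are differences of log2(value + 1) with their standard error (SE) from limma, and a gene is said to rise or fall where its adjusted p is below 0.05. Genes listed at 0 in both DMSO libraries are given without a fold.

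The line's identity was checked first. FGFR2, the receptor gene for which SNU16 is known to carry an amplification, was at 39906 and 39305 in the DMSO libraries and at 45640 and 45888 in the DCB libraries, against DMSO means of 145 to 1058 in the other 4 lines. EPCAM, an epithelial surface protein, was at 4866 and 4724 with DMSO and at 4772 and 4629 with DCB. The leukocyte marker PTPRC did not exceed 3.13 in any SNU16 library. It does not stand for its list, since other leukocyte markers were detected. The summed level of the 9 tested was 161.2 in DMSO library 2 and 166.4 in DCB library 1, the higher library of each group. SNU16 totals were 9100100 and 8987380 with DMSO and 8644230 and 8643830 with DCB, and 22375 and 22258 genes were above 0 with DMSO against 24175 and 24078 with DCB.

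DCB raised a large set of genes that SNU16 hardly expressed and lowered a smaller set of highly expressed ones. Of 27350 genes tested, 633 (2.31%) rose by more than 2 on the log2 scale and 37 (0.135%) fell by more than 2. Without the limit on size, 1230 (4.5%) rose and 641 (2.34%) fell. Counts of gene list members that rose or fell, given below, are to be read against these shares. With library totals made equal outside the ribosomal protein and mitochondrially encoded genes, 1485 rose and 388 fell, so that 79.3% of the changed genes rose in place of 65.7%. Among genes with a mean of at least 10 over the SNU16 libraries, 799 rose and 717 fell, so that 52.7% of the changed genes rose. Fitted on the 4 SNU16 libraries alone, 456 rose and 208 fell.

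The size and place of the changes differed by direction, in part by construction. A gene at 0 with DMSO cannot fall, and a gene near 0 cannot fall by more than 2 on log2(value + 1). None fell among the 4523 genes with a DMSO mean of 0 or the 2820 above 0 to 1. Genes listed at 0 with DMSO entered the test only through values in other libraries. The counts of large rises and large falls are therefore not a like comparison. The 633 genes that rose by more than 2 had a median DMSO mean of 0.475 and a median DCB mean of 13.9, and 280 of them were listed at 0 in both DMSO libraries. Of the 633, 465 were protein-coding, 114 were long noncoding RNAs and 49 were pseudogenes, and 78 (12.3%) lay on the X chromosome, which holds 3.49% of the genes tested. The 641 genes that fell had a median DMSO mean of 954 and a median log2 change of -0.46, and 557 of them fell by less than 1. Among the 87 genes with a DMSO mean above 10000, 61 (70.1%) fell and 13 (14.9%) rose. Of the 8073 genes between 100 and 1000, 250 (3.1%) fell and 185 (2.29%) rose. The 87 include ribosomal protein and mitochondrially encoded genes described below, such as RPLP0 and MT-CO3, so these counts are not separate from theirs.

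**Figure D1:**
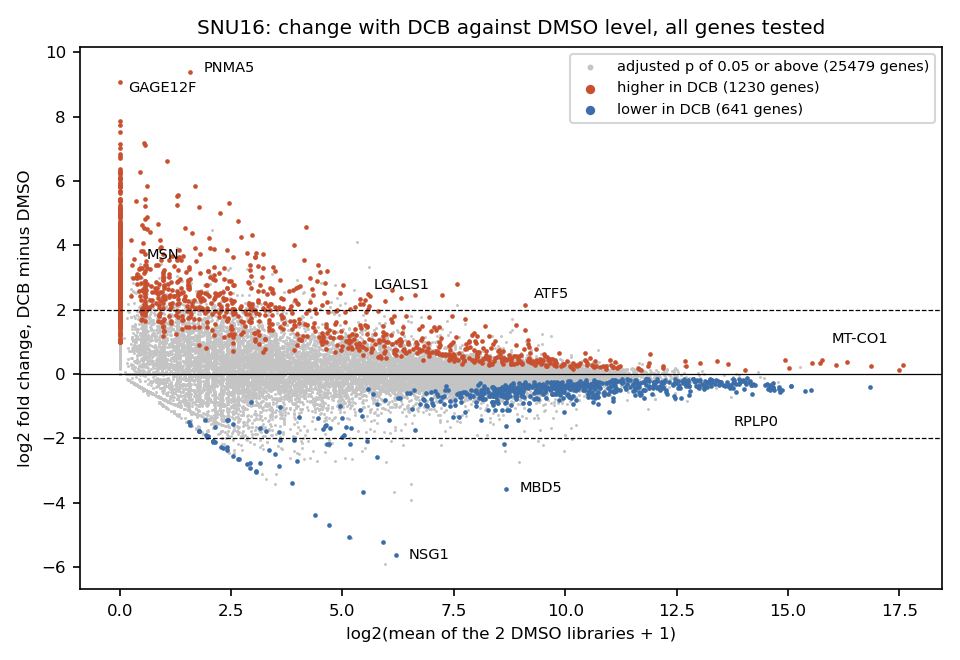
Each point is 1 of the 27350 genes tested, with its DMSO level in SNU16 on the horizontal axis, as log2 of the mean of 2 libraries plus 1, and its log2 fold change with DCB on the vertical axis; dashed lines mark changes of 2. Large rises lie at the left, among genes near 0 with DMSO, and the 641 falling genes form a shallow band at the right.

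The promoters of the 2 germline genes with the smallest p (MAEL and DAZL), and of 2 risers of another kind (MSN and ATF5), are shown for the CG dinucleotides on which methylation acts. Each sequence is the 250 bases before the annotated start, from RefSeq on GRCh38.p14, with CG in capitals: MAEL at chr1:166975332-166975581 (+), DAZL at chr3:16605424-16605673 (-), MSN at chrX:65588127-65588376 (+) and ATF5 at chr19:49928656-49928905 (+).
MAEL: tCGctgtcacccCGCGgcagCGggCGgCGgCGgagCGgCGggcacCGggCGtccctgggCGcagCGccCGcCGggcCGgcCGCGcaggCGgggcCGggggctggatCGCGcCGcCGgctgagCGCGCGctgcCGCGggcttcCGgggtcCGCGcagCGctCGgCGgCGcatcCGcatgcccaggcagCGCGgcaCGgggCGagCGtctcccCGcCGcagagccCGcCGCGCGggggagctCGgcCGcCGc
DAZL: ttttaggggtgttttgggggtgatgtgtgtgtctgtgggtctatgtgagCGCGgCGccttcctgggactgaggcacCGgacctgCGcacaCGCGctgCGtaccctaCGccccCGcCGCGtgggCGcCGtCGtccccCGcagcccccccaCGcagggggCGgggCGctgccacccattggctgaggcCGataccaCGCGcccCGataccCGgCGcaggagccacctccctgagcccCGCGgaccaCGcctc
MSN: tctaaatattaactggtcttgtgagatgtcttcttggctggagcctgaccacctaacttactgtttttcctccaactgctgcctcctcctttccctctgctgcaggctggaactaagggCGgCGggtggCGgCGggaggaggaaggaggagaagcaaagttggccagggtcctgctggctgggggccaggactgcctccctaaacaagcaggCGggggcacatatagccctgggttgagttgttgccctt
ATF5: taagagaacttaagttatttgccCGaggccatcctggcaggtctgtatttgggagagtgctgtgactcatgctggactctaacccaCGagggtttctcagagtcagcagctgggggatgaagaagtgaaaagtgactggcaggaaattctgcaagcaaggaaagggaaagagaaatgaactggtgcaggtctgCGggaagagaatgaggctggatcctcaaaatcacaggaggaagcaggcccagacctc
The MAEL and DAZL stretches hold 51 and 28 CGs, and those of MSN and ATF5 hold 5 and 3. In the 300 bases from 250 before to 50 after the start, the protein-coding genes that rose by more than 2 held a median of 17 CGs (337 of 465 genes matched to a promoter by symbol), against 24 in all protein-coding genes tested (13446 of 17399 matched). Among protein-coding genes listed at 0 in both DMSO libraries, 72.1% of the 140 matched genes that rose by more than 2 held at least 10 CGs, against 52.7% of the 1411 matched genes that were not called. CG was counted on the printed strand, and 56.0% of all promoters in the table hold at least 10. The matching covered under 80% of most of these sets, so the comparison of CG content is void as a check and stands as a description of the matched genes.

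Germline genes were among the largest rises. MAEL, a piRNA pathway protein of the germ line, was at 235.9 and 232.5 with DCB and listed at 0 in each DMSO library (adjusted p = 2.00e-09). DAZL, an RNA-binding protein needed for germ cell development, likewise went from 0 in each DMSO library to 178 and 186 (adjusted p = 1.15e-08). PNMA5, an X-linked paraneoplastic antigen gene, went from 0.965 and 3.02 to 1884 and 1900, a log2 change of 9.40 (SE 0.390, adjusted p = 1.12e-08). The DMSO and DCB libraries of these genes do not approach each other, and the DCB pair lies close together in each. PNMA6E, of the same family, was listed at 0 with DMSO and at 87.3 and 76.4 with DCB.

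Of 50 tested genes of meiosis and the piRNA pathway, 23 rose and none fell, 18 of them by more than 2, with a median log2 change of 1.52 against 0.01 over all genes tested. Leaving out 1 library left 14 to 19 that rose, the lowest without DMSO library 2. MEIOB, a meiotic DNA-binding protein, was listed at 0 with DMSO and at 80.8 and 57.2 with DCB (adjusted p = 4.91e-07). TKTL1, a transketolase-like gene of the testis, was at 0.747 and 0 with DMSO and at 125 and 83.7 with DCB. HSPA2, the chaperone of spermatocytes, differed from these in its starting level: it went from 149 and 152 to 840 and 826, a log2 change of 2.46 (SE 0.170, adjusted p = 9.08e-07). DDX4, the germ cell helicase VASA, was listed at 0 with DMSO and at 2.5 and 23.2 with DCB (adjusted p = 0.0203). Its adjusted p was 0.0944 and 0.0958 without DMSO library 1 or 2 and 0.187 without DCB library 2, so that its call rested on each of these.

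Among the X-linked antigen families, 22 of 38 tested GAGE, PAGE, XAGE, SSX and CT45 genes rose, each by more than 2, and none fell. GAGE12F was listed at 0 with DMSO and at 558 and 508 with DCB (adjusted p = 3.28e-08). XAGE1B was listed at 0 with DMSO and at 168 and 118 with DCB, and GAGE13 at 0 and then at 62.2 and 61.1. SSX2, a testis gene known from the fusions of synovial sarcoma, was at 0 and 2.21 with DMSO and at 172 and 178 with DCB. The GAGE, XAGE and SSX genes have near-identical copies between which reads can be divided in several ways, so the share of each copy is uncertain.

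Of 21 tested MAGE antigens, 10 rose and none fell. Their starting levels were of 2 kinds. MAGEB2 was listed at 0 with DMSO and at 47.4 and 49.2 with DCB (adjusted p = 1.36e-07), and MAGEA4 at 0 and then at 25.6 and 31.7. MAGEA6 was present before treatment, at 55.3 and 33.5, and reached 204 and 232, a log2 change of 2.31 (SE 0.198, adjusted p = 6.17e-06). MAGEA9 was listed at 0 with DMSO and was at 8.89 and 9.85 with DCB (adjusted p = 1.35e-06). AC073349.2, a processed pseudogene, followed the same course as the antigens, listed at 0 with DMSO and at 111 and 108 with DCB (adjusted p = 1.41e-08).

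**Figure D2:**
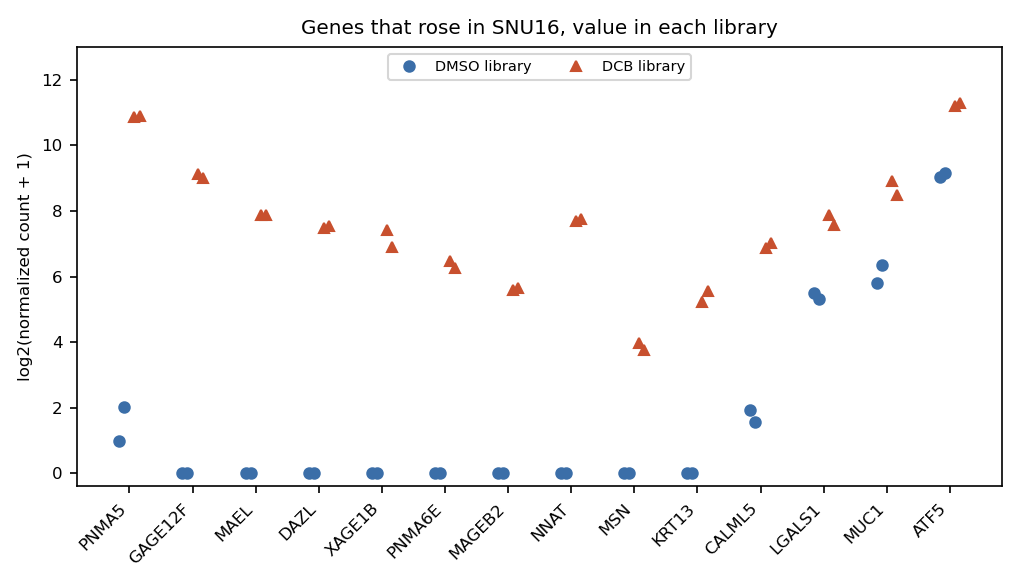
Points give log2(normalized count + 1) of 14 genes that rose, in each of the 2 DMSO libraries (circles) and the 2 DCB libraries (triangles) of SNU16. Germline genes start at or near 0, while LGALS1, MUC1 and ATF5 start from an expressed level.

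The smallest p of any riser belonged to MSN, which encodes moesin, a linker of the actin cortex to the membrane. With DMSO it was listed at 0 in each library, and with DCB it was at 14.6 and 12.5 (adjusted p = 1.60e-11). This level stayed low: DMSO means of the other 4 lines were 476 to 1489. Its SE of 0.0864 pools its own spread within the groups of all 5 lines with a smaller part from genes of like mean, and most of those libraries hold MSN at a far higher level than SNU16 does. Fitted on the SNU16 libraries alone its adjusted p was 0.0253. In that fit 127 of the genes named by the rule below no longer passed, LGALS1 among them.

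Among genes with a DMSO mean of at least 500, ATF5 rose most. This transcription factor of the stress response was at 528 and 566 with DMSO and at 2373 and 2491 with DCB, 4.45-fold higher (log2 change 2.15, SE 0.0789, adjusted p = 2.73e-09). Both DCB libraries lie far above both DMSO libraries. In GENCODE, 19.5% of its exon bases are shared with NUP62 on the opposite strand, the study's methods call the libraries strand-specific, and whether the counting used strand is not given in the sources used here. LGALS1, the secreted lectin galectin-1, was at 44.0 and 38.6 with DMSO and at 236 and 189 with DCB (5.14-fold, adjusted p = 3.73e-08).

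Moderate rises, between 0.5 and 2 on the log2 scale in genes with a DMSO mean of at least 50, included several cytoskeletal and matrix genes. PLEKHG4, a guanine nucleotide exchange factor, was at 264 and 320 with DMSO and at 781 and 873 with DCB, 2.84-fold higher (adjusted p = 5.32e-07). CAVIN1, a coat protein of caveolae, went from 277 and 243 to 598 and 578 (2.26-fold), and CKB, the brain-type creatine kinase, from 584 and 503 to 1434 and 1387 (2.60-fold). FLNA, the actin crosslinker filamin A, was at 3916 and 3739 with DMSO and at 6080 and 5801 with DCB, 1.55-fold higher (adjusted p = 1.81e-05). TIMP1, an inhibitor of matrix metalloproteinases, went from 69.3 and 89.3 to 189 and 195 (2.42-fold). Noncoding RNAs rose as well: AC074117.1 went from 538 and 411 to 1368 and 1338, LINC02043 from 76.9 and 64.3 to 274 and 229, and NNT-AS1 from 290 and 330 to 674 and 723.

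Of 44 tested mesenchymal and actin linker genes, 11 rose and none fell, with a median log2 change of 0.60. They include MSN, LGALS1, CAVIN1 and FLNA. With the SNU16 libraries fitted alone, 2 of the 44 rose. VIM, the intermediate filament of mesenchymal cells, rose from 0 and 1.94 to 10.6 and 15.4 (adjusted p = 3.78e-04). Its level remained far below its DMSO mean of 72246 in HGC27. Of 11 tested fibroblast and endothelial markers none passed the adjusted p of limma, and 5 were higher at an unadjusted p below 0.05. Their summed level was 150 and 139 with DMSO and 325 and 306 with DCB, and the part of such cells in the rise of mesenchymal genes was not tested.

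Genes of inflammatory and antiviral signalling rose in smaller numbers. Of 39 tested NF-kB targets and chemokines, 10 rose and none fell (median log2 change 0.66), and 7 to 9 rose with 1 library left out. CXCL17, a mucosal chemokine, was at 8.19 and 8.53 with DMSO and at 114 and 135 with DCB libraries 2 and 1, 14.9-fold higher (adjusted p = 1.10e-04). BIRC3, an inhibitor of apoptosis and NF-kB target, went from 11.7 and 8.72 to 89.2 and 115 (9.97-fold, adjusted p = 3.11e-04). CCL5, a T cell chemokine, went from 54.8 and 63.9 to 196 and 148 (2.90-fold). CXCL11 was listed at 0 with DMSO and was at 6.0 and 7.73 with DCB. ICAM1, an adhesion molecule for leukocytes, was at 2.67 and 4.64 with DMSO and at 46.2 and 12.9 with DCB, where the DCB pair was far apart (adjusted p = 3.40e-03).

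Where 4.5% of all genes tested rose, 11 of 54 tested interferon-stimulated genes rose and none fell, with a median log2 change of 0.34. The count was 8 without DMSO library 1 and 4 without any other SNU16 library, and 1 with the SNU16 libraries fitted alone. IFI6, a mitochondrial protein induced by interferon, went from 1.72 and 3.16 to 23.7 and 14.7 (7.87-fold, adjusted p = 1.40e-04). SAMD9, an antiviral restriction factor, went from 251 and 231 to 562 and 553 (2.32-fold, adjusted p = 2.25e-03), and IFI35 from 36.0 and 36.1 to 65.4 and 59.0. HLA-B, an antigen-presenting class I molecule, went from 1325 and 1449 to 2151 and 2178 (1.56-fold, adjusted p = 3.34e-03), and 3 of 19 tested class I genes rose.

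Epithelial differentiation genes rose in part. MUC1, a membrane mucin of gastric surface cells, was at 55.3 and 80.6 with DMSO and at 484 and 359 with DCB, 6.20-fold higher (adjusted p = 5.29e-05). Of 43 tested intestinal and goblet cell genes 8 rose and none fell, though the median change was 0, and 4 to 6 rose with 1 library left out, the lowest without DMSO library 2. SPINK4, a goblet cell peptide, went from 113 and 81.3 to 515 and 543 (5.43-fold), and GUCA2A, the gut hormone guanylin, from 5.69 and 8.90 to 110 and 109 (15-fold). FOXA2, an endodermal transcription factor, went from 373 and 356 to 604 and 612 (1.67-fold, adjusted p = 1.87e-03).

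Of 31 tested genes of epidermal differentiation and the S100 family, 10 rose and 1 fell. The count that rose was 5 or 6 with 1 library left out. CALML5, a calmodulin-like protein of the epidermis, was at 2.85 and 1.98 with DMSO and at 116 and 129 with DCB (log2 change 5.18, SE 0.375, adjusted p = 1.35e-06). PADI3, an enzyme that citrullinates hair and skin proteins, went from 7.59 and 6.92 to 101 and 104 (14.1-fold), and S100A2 from 8.64 and 12.7 to 51.3 and 39.7 (4.27-fold). S100A6 was the member that fell, from 6691 and 6676 to 5289 and 5248 (log2 change -0.34, adjusted p = 2.48e-03). Of 28 tested keratins 5 rose, and 2 or 3 with 1 library left out. KRT13, a keratin of stratified mucosa, was listed at 0 with DMSO and at 36.0 and 45.9 with DCB, and KRT23 went from 14.4 and 15.1 to 63.6 and 79.5 (4.84-fold).

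Some regulators and imprinted genes rose too. Of 28 tested WNT antagonists 5 rose and 1 fell, and 3 rose without DCB library 1. With the SNU16 libraries fitted alone, 0 of the 28 rose. AXIN2, a feedback inhibitor of WNT signalling, went from 27.4 in both DMSO libraries to 100 and 68.8 (3.08-fold, adjusted p = 1.93e-06). DKK1, a secreted WNT inhibitor, went from 5.35 and 8.05 to 24.1 and 40.2, and NOTUM, an enzyme that inactivates WNT ligands, from 0 and 1.71 to 13.1 and 8.29. FGFR4, a fibroblast growth factor receptor, went from 137 and 115 to 343 and 300 (2.55-fold, adjusted p = 4.60e-03), whereas FGFR2 changed by 0.21 (SE 0.229, adjusted p = 0.740). NNAT, an imprinted proteolipid gene, was listed at 0 with DMSO and reached 208 and 214 (adjusted p = 8.94e-07), and MKRN3, an imprinted ubiquitin ligase, went from 16.3 and 14.1 to 46.2 and 50 (3.16-fold). HOXC12 was listed at 0 with DMSO and at 44.4 and 57.1 with DCB, and HOXC13 went from 3.80 and 5.93 to 23.7 and 19.7, among 5 of 38 tested HOX genes that rose. With 1 library left out, 2 to 4 HOX genes rose.

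The falls of more than 2 on the log2 scale were few and mostly from low levels. Of the 37 genes, 18 had a DMSO mean below 10, and 19 were listed at 0 in both DCB libraries. NSG1, a protein of neuronal endosomes, was at 70.8 and 73.8 with DMSO and at 0 and 1.18 with DCB (log2 change -5.63, SE 0.701, adjusted p = 1.86e-04). The noncoding RNA AC073316.1 went from 60.3 and 57.7 to 0.610 and 0.608 (adjusted p = 2.89e-05). SLC7A5P2, a pseudogene, was at 8.54 and 3.96 with DMSO and listed at 0 with DCB, as was OR51E1, an olfactory receptor gene, from 3.82 and 6.97. MBD5, a methyl-CpG-binding domain protein, fell from 659 and 151 to 21.5 and 31.3 (adjusted p = 2.25e-03), with DMSO libraries that differed more from each other than the DCB libraries did. TSPAN12, a tetraspanin, fell from 46.3 and 23.9 to 9.97 and 4.26.

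Ribosomal protein genes were among the moderate falls. RPLP0, a stalk protein of the large ribosomal subunit, was at 42844 and 42299 with DMSO and at 30107 and 29633 with DCB, 1.43-fold lower (log2 change -0.51, SE 0.0235, adjusted p = 2.11e-08). RPL10 went from 28610 and 28558 to 20953 and 20799, RPL13 from 26181 and 25746 to 19716 and 19182, RPL13A from 30333 and 29524 to 21779 and 21074, and RPS6 from 23094 and 22852 to 18104 and 18217. In each of these the DCB libraries lie below both DMSO libraries. Of 74 tested cytosolic ribosomal protein genes, 61 fell and 1 rose, with a median log2 change of -0.25. Over all genes tested 2.34% fell. The share was 16.2% at a DMSO mean of 1000 to 10000 and 70.1% above 10000, levels that include ribosomal protein genes. Whether these fell more often than other genes of like level was not tested.

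The count of ribosomal protein genes that fell depended on how the spread was estimated. It was 12 without a trend of the spread on the mean and 1 with the SNU16 libraries fitted alone, and 47 with totals made equal outside the ribosomal protein and mitochondrially encoded genes. The share of all normalized counts taken by the 74 genes was 10.4% and 10.3% with DMSO and 8.90% and 8.75% with DCB. That share and the library total moved together with DCB, and the part of the scaling between libraries in these falls was not tested.

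The starts of the 5 ribosomal protein genes with the smallest p among those matched to RefSeq are shown, since transcripts of this family are known to begin with a run of pyrimidines. Each line gives 10 bases before and 20 after the annotated start on GRCh38.p14, with capitals for a C within 5 bases of the start, the first such C that is followed by at least 5 more C or T letters, and for the C and T letters after it. Pyrimidines that lie before that C, as in RPL13A, stay in lower case. The windows are RPLP0 at chr12:120201092-120201121 (-), RPL10 at chrX:154398055-154398084 (+), RPL13 at chr16:89560647-89560676 (+), RPL13A at chr19:49487598-49487627 (+) and RPS6 at chr9:19380217-19380246 (-).
RPLP0: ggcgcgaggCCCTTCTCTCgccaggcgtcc
RPL10: ccactctcagaaatatacgtctgtcacagt
RPL13: tgctatcatcccagagtgcattgcggggcc
RPL13A: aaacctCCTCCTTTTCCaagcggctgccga
RPS6: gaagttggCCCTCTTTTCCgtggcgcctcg
RPLP0, RPL13A and RPS6 hold such a run, and the letters are not in the other windows. The run was found in 46 of the 59 matched ribosomal protein genes (78.0%) and in 11% of all promoters in the table, read on the transcribed strand only. Among other protein-coding genes with a DMSO mean of at least 1000, it stood at the start of 29.2% of the 192 matched genes that fell and of 14.9% of the 1066 that did not. These shares are descriptions of annotated starts.

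Some transcripts that carry or serve this machinery fell as well. SNHG29, GAS5, SNHG7 and ZFAS1 are hosts of small nucleolar RNAs, which guide the modification of ribosomal RNA. SNHG29 went from 6955 and 7108 to 4408 and 4476 (adjusted p = 2.12e-07), GAS5 from 4846 and 5147 to 3335 and 3220, SNHG7 from 1713 and 1720 to 909 and 884, and ZFAS1 from 3536 and 3415 to 2042 and 2084. Among 30 tested genes named as small nucleolar RNA hosts, a list chosen after these values were seen, 9 fell and 1 rose. In that list 11 to 14 fell in each of the other 4 lines. EEF1G, a subunit of elongation factor 1, went from 29708 and 27725 to 19854 and 19214 (1.47-fold lower), though 99.7% of its exon bases are shared with another annotated gene on its strand. Of 70 tested initiation and elongation factor genes, also listed after the values were seen, 15 fell and 2 rose. Over all genes tested 2.34% fell and 4.5% rose, and 16.2% of those with a DMSO mean of 1000 to 10000 fell. Whether the factors fell more often than other genes of like level was not tested.

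**Figure D3:**
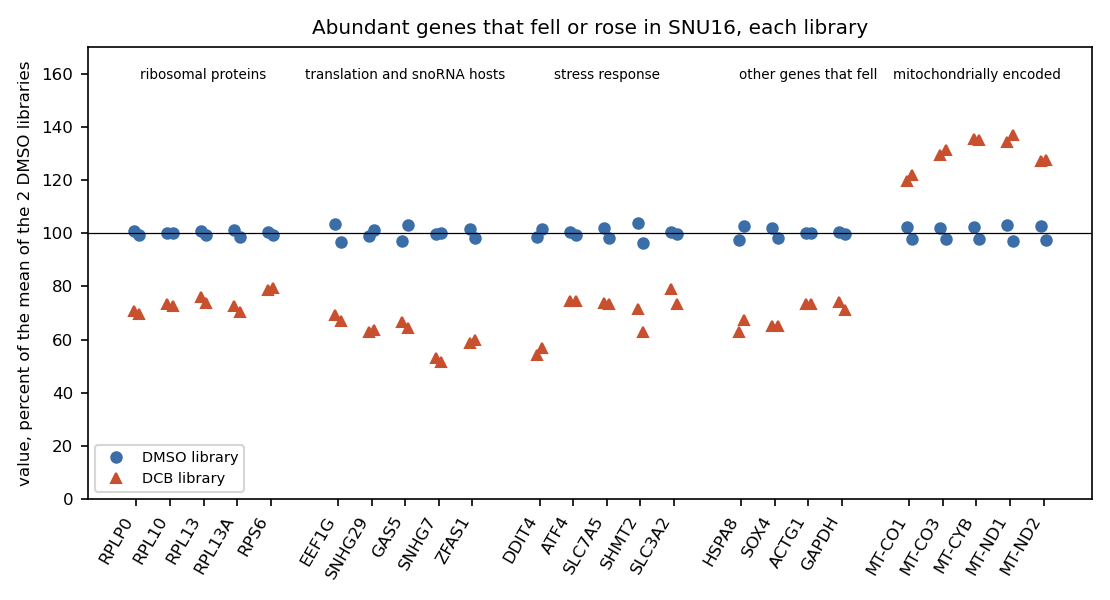
Values of 24 abundant genes in each SNU16 library are given as a percentage of the mean of the 2 DMSO libraries, with DMSO as circles and DCB as triangles. Genes of protein synthesis, the stress response and other falling genes lie below the DMSO libraries with DCB, and the 5 mitochondrially encoded genes lie above them.

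Other abundant genes fell by similar amounts. HSPA8, the constitutive cytosolic chaperone, went from 18309 and 19277 to 11802 and 12687 (1.53-fold lower, adjusted p = 4.78e-07). SOX4, a transcription factor of progenitor cells, fell from 1679 and 1616 to 1073 and 1070. ACTG1, cytoplasmic actin, was at 24322 and 24314 with DMSO and at 17800 and 17879 with DCB (adjusted p = 2.12e-08). Of 15 genes often used as references 3 fell, RPLP0 and GAPDH among them, and none rose, with GAPDH going from 16547 and 16442 to 12205 and 11716.

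Genes of the integrated stress response, through which ATF4 raises amino acid uptake and synthesis, fell in part. Of 30 tested, 12 fell and 2 rose, with a median log2 change of -0.22. ATF4 was at 8293 and 8195 with DMSO and at 6139 and 6142 with DCB (log2 change -0.42, SE 0.0317, adjusted p = 1.79e-06). DDIT4, an inhibitor of mTORC1, fell from 2129 and 2193 to 1173 and 1232, 1.80-fold lower. The amino acid transporter subunits SLC7A5 and SLC3A2 went from 6029 and 5798 to 4362 and 4332 and from 3208 and 3180 to 2525 and 2339, and SHMT2, of mitochondrial folate metabolism, from 3383 and 3138 to 2329 and 2052. The count that fell was 7 to 9 with 1 library left out, lowest without DMSO library 2 or DCB library 2, and 6 with totals made equal. Without a trend of the spread on the mean 4 of the 30 fell, and 3 with the SNU16 libraries fitted alone. ATF5, described above as rising, is a relative of ATF4.

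Unfolded protein response genes went the other way. These genes raise the folding capacity of the endoplasmic reticulum. Of 23 tested, 8 rose and 1, the transcription factor CREB3L1, fell, and CREB3L1 did not pass with any 1 library left out. CALR, a lectin chaperone, went from 4765 and 4672 to 5636 and 5600 (log2 change 0.25, adjusted p = 5.68e-05), PDIA4, a disulfide isomerase, from 2376 and 2390 to 2876 and 2839, and HSP90B1, the chaperone GRP94, from 6672 and 6805 to 8148 and 7789. CRELD2, a secreted folding factor, rose most of the members named here, from 228 and 209 to 390 and 441 (1.90-fold), and SYVN1, a ubiquitin ligase of protein disposal, from 544 and 486 to 763 and 797. Without a trend of the spread on the mean, 2 of the 23 rose, and 0 with the SNU16 libraries fitted alone.

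Transcripts of the mitochondrial genome rose. Of 13 tested protein-coding mitochondrial genes, 12 rose and none fell, with log2 changes of 0.19 to 0.44 over the 13. MT-CO1, a catalytic subunit of cytochrome oxidase, was at 200091 and 190975 with DMSO and at 233591 and 238114 with DCB (adjusted p = 1.12e-06). MT-CYB, of complex III, went from 31999 and 30637 to 42440 and 42273, 1.35-fold higher (adjusted p = 2.12e-08), and MT-ND1 and MT-ND2, of complex I, from 57072 and 53838 to 74438 and 75852 and from 49095 and 46577 to 60748 and 61022. The 13 genes made up 8.08% and 7.8% of normalized counts with DMSO and 10.3% and 10.4% with DCB. The count that rose was 5 without a trend of the spread on the mean and 0 with the SNU16 libraries fitted alone. Of 70 tested nuclear genes of the respiratory chain 8 rose and 2 fell, and 2 to 5 rose with 1 library left out. NDUFS5 went from 1360 and 1412 to 1887 and 1899 and COX6C from 772 and 801 to 1047 and 1082, while CYC1 fell from 1777 and 1693 to 1352 and 1273 and NDUFA9 from 466 and 456 to 345 and 311.

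Few or no genes passed the test in the lists of cell division. Of 43 tested genes of the G1/S transition and DNA replication and of 41 of G2/M and mitosis, none passed the adjusted p of limma in either direction, and their median log2 changes were 0.08 and -0.08. At an unadjusted p below 0.05, 3 rose and 1 fell in the first list, and 2 rose and 6 fell in the second. Of 34 tested p53 targets, 2 rose and 2 fell, and with 1 library left out 1 or 2 rose and 0 to 2 fell. Shares over all genes tested were 4.5% that rose and 2.34% that fell. TIGAR, a regulator of glycolysis, went from 43.5 and 61.2 to 141 and 107 (2.37-fold, adjusted p = 2.96e-03). CDKN1A, the cell cycle inhibitor p21, was at 265 and 236 with DMSO and at 334 and 347 with DCB (log2 change 0.44, SE 0.106, adjusted p = 0.0231), and its adjusted p was 0.171 without DMSO library 2 and 0.0764 and 0.125 without DCB library 1 and 2. Of 23 tested genes of the DNA methylation machinery, DNMT3B and UHRF2 passed at adjusted p of 0.0348 and 0.0498. DNMT3B, a de novo methyltransferase, went from 9.82 and 6.82 to 13.3 and 14.6, and its adjusted p was 0.254, 0.0839 and 0.159 without DMSO library 2, DCB library 1 or DCB library 2. UHRF2, a reader of modified cytosine, went from 236 and 271 to 620 and 387, and its adjusted p was 0.223, 0.122 and 0.347 without DMSO library 1, DMSO library 2 or DCB library 1.

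**Figure D4:**
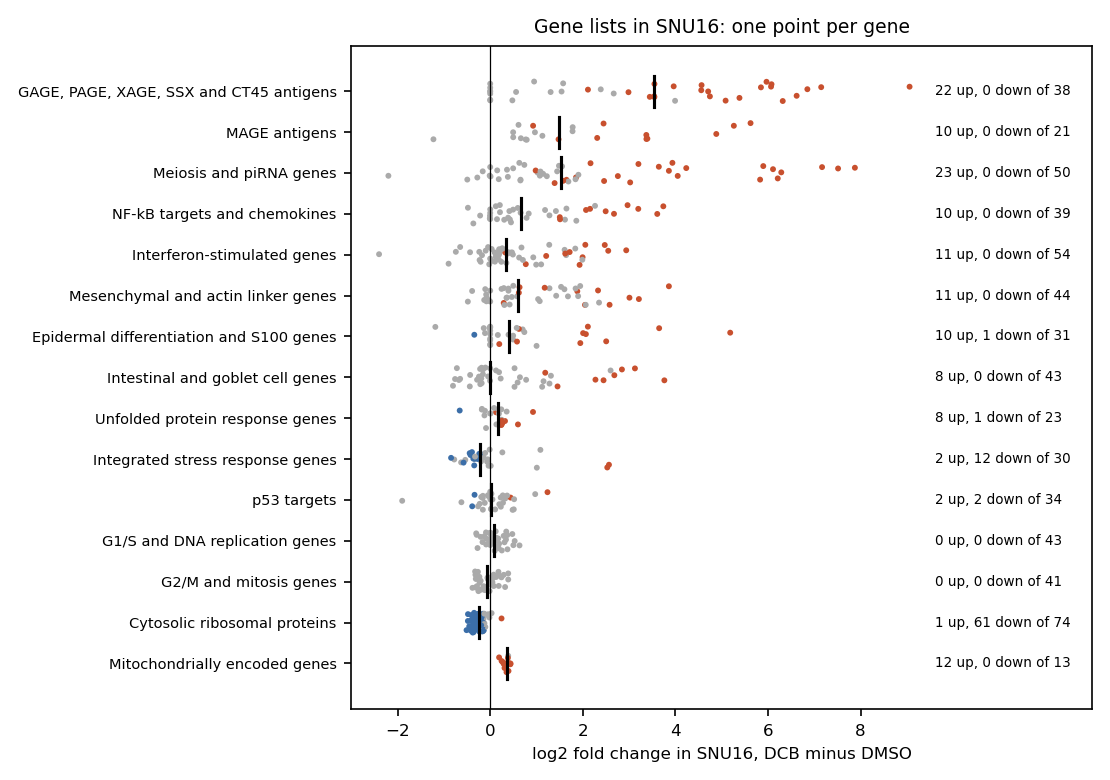
Each point is a tested gene of a list, placed by its log2 fold change in SNU16, red where it rose, blue where it fell and grey where its adjusted p was 0.05 or above; the black bar is the list median and the counts stand at the right. The antigen and meiosis lists reach furthest to the right, the ribosomal protein list lies just left of 0 and the mitochondrially encoded list just right of it.

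Genes for which methylation or DCB responses have been of interest in gastric cancer were looked at next. Of 21 such genes that the study names, some of them chosen on these same samples and so no independent evidence, DDX4 rose and THRA and INPP4B fell. THRA, a thyroid hormone receptor, went from 987 and 977 to 590 and 583 (log2 change -0.74, SE 0.0921, adjusted p = 1.81e-04). INPP4B, a phosphoinositide phosphatase, was at 43.8 and 40.4 with DMSO and at 11.5 and 23.3 with DCB (adjusted p = 0.0178), with adjusted p of 0.100, 0.0698 and 0.165 without DMSO library 1, DMSO library 2 or DCB library 1. RARB, a retinoic acid receptor, was at 56.3 and 59.8 with DMSO and at 43.5 and 55.6 with DCB. CDKN1C, an imprinted cell cycle inhibitor, was at 89.0 and 81.1 and then at 47.5 and 56.5, and the homeobox gene MSX1 at 37.4 and 48.3 and then at 35.6 and 37.0. MYC, an oncogene, went from 7107 and 6900 to 5396 and 5497 (adjusted p = 0.0253), with an adjusted p of 0.0902 to 0.135 when any 1 SNU16 library was left out. RXRA, a partner of retinoic acid receptors, fell from 388 and 378 to 260 and 260 (adjusted p = 4.83e-04).

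Of 40 tested genes of reactive oxygen species metabolism, 3 rose and 2 fell, and 1 rose without DMSO library 2 or DCB library 2. Shares over all genes tested were 4.5% and 2.34%. PRDX1, a peroxiredoxin, went from 3694 and 3877 to 4787 and 4724 (adjusted p = 6.91e-05) and GSTP1, a glutathione transferase, from 5636 and 5376 to 4486 and 4402 (adjusted p = 1.42e-03). GPX1, a glutathione peroxidase, was at 1022 and 943 with DMSO and at 1000 and 1011 with DCB, with overlapping groups.

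The other lists moved in few genes, where 4.5% of all genes tested rose and 2.34% fell. Of 29 tested glycolysis and hypoxia genes 5 fell and none rose, and 3 fell without either DMSO library or DCB library 2. Without a trend of the spread on the mean, 1 of the 29 fell. Of 48 tested histone genes 6 rose, but 0 or 1 with any 1 library left out, and of 25 tested cholesterol synthesis genes 3 rose, but 1 with any 1 left out. Of 27 tested imprinted genes 5 rose and 1 fell, and with 1 library left out 2 to 4 rose and 0 or 1 fell, with the lowest count of risers without DMSO library 1 or DCB library 2. Of 42 apoptosis regulators 3 rose, and 2 with any 1 library left out. Of 17 CDK inhibitors and checkpoint genes 2 rose, but none without DMSO library 2 or either DCB library, and of 9 metallothioneins 1 rose, but none without DMSO library 2 or DCB library 2. Of 25 retinoic acid genes 3 rose and 1 fell, and none rose without DMSO library 2 or DCB library 1. Of 36 receptor kinases and oncogenes 3 rose and 2 fell, and none fell without those same libraries. Of 25 gastric mucosa genes 2 rose and 2 fell, and 0 or 1 fell with any 1 library left out. Of 38 tested cell adhesion genes 1 rose and 2 fell, and 0 or 1 fell with any 1 left out. Of 17 genes of DCB uptake and metabolism 1 rose, and of 9 leukocyte markers 1 rose, but in both lists none without DMSO library 2 or DCB library 1. Of 10 epithelial markers 1 rose, which was MUC1.

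The SNU16 response was then set against the mean response of the other 4 lines, as a difference of log2 changes in the same fit. It was larger by more than 2 in 194 genes (0.709%) and smaller by more than 2 in 630 (2.3%). The other lines also had more genes that rose by more than 2, with 1355 (4.95%) in HGC27, 1745 (6.38%) in SNU719, 2184 (7.99%) in YCCEL1 and 2466 (9.02%) in AGS. Without the limit on size, the SNU16 response was larger in 762 genes (2.79%) and smaller in 1497 (5.47%), and the counts of list members below are read against these shares. Of the 633 such genes of SNU16, 182 were called in none of the other lines, 142 in 1, 128 in 2, 111 in 3 and 70 in each of the 4. At least 1 other line expressed 301 of the 633 at a DMSO mean of 10 or more.

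The mitochondrially encoded genes, which rose in SNU16, mostly fell in the other lines. Of the 13, 2 rose and 9 fell in AGS and likewise in HGC27. None rose in SNU719 and YCCEL1, where 10 and 12 fell. MT-CO1 changed by 0.27 in SNU16 and by 0.16 in HGC27. Log2 changes of MT-CYB were 0.44 in SNU16, -0.07 in AGS, -0.82 in HGC27, -0.11 in SNU719 and -0.68 in YCCEL1 (difference 0.86, SE 0.02, adjusted p = 6.93e-11). MT-ND2 changed by 0.35 in SNU16 against 0.03, -1.05, -0.28 and -0.79 in the other lines in the same order. For 12 of the 13 genes the SNU16 change was larger than the mean of the others. MT-RNR2, the large mitochondrial ribosomal RNA and not one of the 13, changed by 0.13 in SNU16 and by 0.98 in SNU719 and 1.37 in YCCEL1 (difference -0.43, adjusted p = 9.30e-09). Ribosomal protein genes fell in the other lines too, in 56 to 74 of 74 genes, where 9.13% of all genes tested fell in AGS, 9.03% in HGC27, 7.64% in SNU719 and 6.93% in YCCEL1. In 39 of the 74 the SNU16 change was less negative than the mean of the others.

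ATF5 rose in SNU16 and by 1.40 in YCCEL1, against -0.01 in AGS, -0.27 in HGC27 and 0.07 in SNU719 (difference 1.86, SE 0.09, adjusted p = 1.73e-08). PLEKHG4 changed by 1.51 in SNU16 and by 0.01, -0.81, -0.18 and 0.10 in AGS, HGC27, SNU719 and YCCEL1 (difference 1.73, adjusted p = 4.20e-07). AXIN2 and FGFR4 likewise had larger changes than the mean of the others, by 1.90 and 1.55. NSG1, which fell in SNU16, changed by 3.35 in AGS, -0.64 in HGC27, 1.12 in SNU719 and 1.47 in YCCEL1, where the DMSO means of AGS (0.823), SNU719 (0.178) and YCCEL1 (0.325) are below 1 and the sizes rest on the added 1. HSPA8 and ACTG1 fell in SNU16, while their mean changes in the others were 0.12 and 0.21 (differences -0.74 and -0.66). These means join opposite changes. HSPA8 changed by 0.17 in AGS, 0.74 in HGC27, -0.16 in SNU719 and -0.28 in YCCEL1. ACTG1 changed by 0.32, -0.01, 0.69 and -0.15 in the same order.

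In the opposite direction stood genes with a smaller or no rise in SNU16. IL32, a cytokine, was at 1225 and 1157 with DMSO and at 1448 and 1308 with DCB in SNU16, a log2 change of 0.21 (SE 0.126, adjusted p = 0.436). Its change was 2.65 in AGS, 3.85 in HGC27, 1.12 in SNU719 and 6.01 in YCCEL1 (difference -3.20, SE 0.14, adjusted p = 9.30e-09). SFN, the p53 target 14-3-3 sigma, was at 929 and 869 with DMSO and at 910 and 920 with DCB, where the groups overlap, and changed by 0.60 to 3.81 in the other lines. ANXA2, a membrane-binding annexin, changed by -0.14 in SNU16 (adjusted p = 0.0350, and 0.0938 to 0.175 when any 1 SNU16 library was left out) and by 0.46 to 1.11 in the others. Of the 34 p53 targets, 12 had a smaller and 1 a larger change in SNU16 than in the mean of the others, and for CDKN1A the difference was -1.0 (adjusted p = 1.31e-04). For CDKN1C and MSX1, which did not pass the test in SNU16, the differences were -3.73 and -3.66, and for DUSP1, a phosphatase of the MAP kinases, -1.19.

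**Figure D5:**
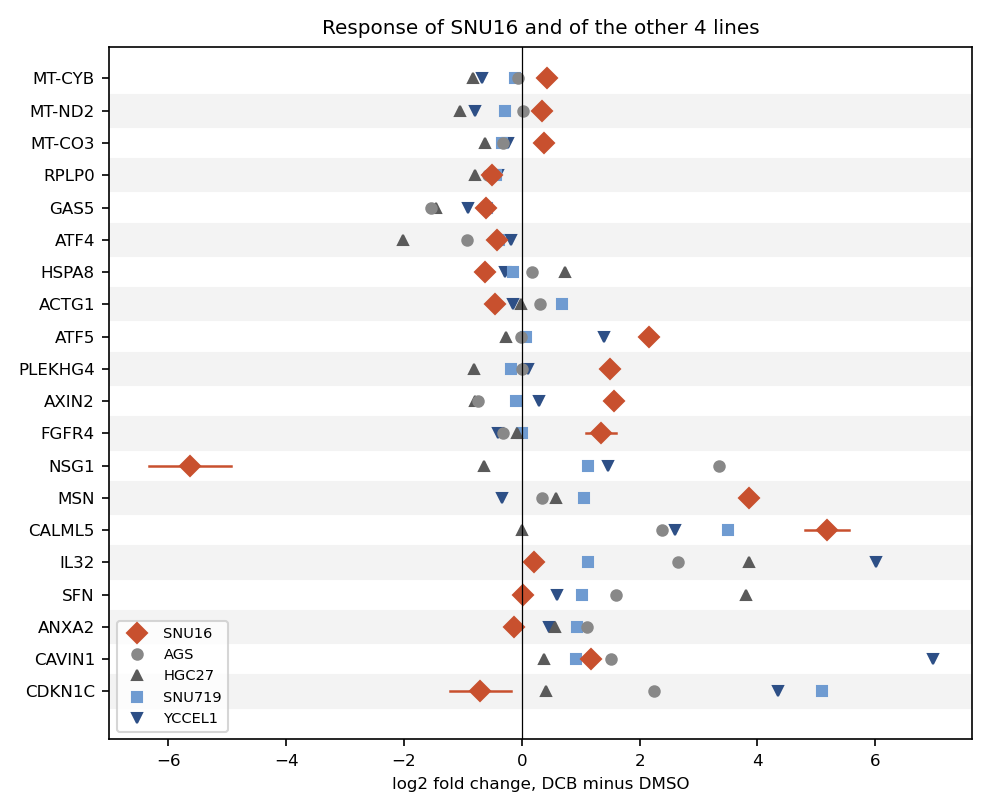
Log2 fold changes with DCB are given for 20 genes in SNU16 (diamonds, with a bar of 1 SE to each side) and in the other 4 lines. SNU16 lies to the right of every other line for the mitochondrially encoded genes, ATF5, PLEKHG4, AXIN2, FGFR4, MSN and CALML5, and to the left of every other line for HSPA8, ACTG1, NSG1, IL32, SFN, ANXA2 and CDKN1C. MSN is listed at 0 with DMSO in SNU16, so the size of its change there rests on the added 1.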

How the data were processed

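The authors deposited 1 table of 60232 genes by 20 libraries. Its values are a normalized signal per gene, read counts scaled between libraries as the authors made them, and are not whole numbers, so no count model was fitted. The submitters' notes name the build GRCh37 and the tools DESeq2 1.14.1, featureCounts 1.5.1 and STAR 2.5.2b, while the study's methods state GRCh38 with the EBV genome and the table's coordinates are of GRCh38. The labels and the methods also differ in the library kit, a poly(A) kit against a 3′ kit, and in the name of 1 line, HGC27 in the labels. The read depth is not given in the sources used here.

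Genes with a sum above 10 over the 20 libraries (27350) were tested on log2(value + 1), which understates changes of low genes, with limma 3.58.1 in R 4.3.3 (lmFit over 10 groups, eBayes with a trend, Benjamini-Hochberg adjustment). The 10 residual and 3.39 prior degrees of freedom pool the spread of all lines. The difference from the other lines is a contrast in that fit. The fit was tested on simulated data. Promoters came from a RefSeq table (GRCh38.p14), matched by symbol for 15024 of the genes tested (54.9%).

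The members and lists were chosen with earlier results of these data known. Genes were named by a rule: those the study names, the 10 with the smallest p in each direction past a change of 2, and 10 in each direction with a smaller change above 0.5 and a DMSO mean of at least 50, all with groups that do not overlap, then 5 in each direction for the difference between lines and up to 5 per list. FGFR2, EPCAM, PTPRC and CREB3L1 stand outside the rule and were added after their values were seen, and genes the rule names that are not described, some of them not reported here, enter the counts. Alternatives changed the pseudocount, filter, trend, scaling, samples fitted and weights.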

Additional observations from a re-analysis of the deposited data

Results flagged for a closer look

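116 genes named in the text were compared with the other lines, and for 81 of them, those above 0 in every group of libraries, the difference of log2 changes was examined. The SNU16 change differed from the mean change of the other 4 lines (limma contrast, adjusted p below 0.05) in 51, and these are given as differences on the log2 scale. The difference was positive in 30 genes: 2.68 for BIRC3, 2.03 for MKRN3, 1.90 for AXIN2, 1.86 for ATF5, 1.73 for PLEKHG4, 1.65 for VIM, 1.55 for FGFR4 and 1.35 for MUC1. It was 0.97 for CKB, 0.87 for MT-ND2, 0.87 for TIGAR, 0.86 for MT-CYB, 0.79 for FOXA2, 0.76 for MT-CO3, 0.74 for AC074117.1 and 0.69 for MT-ND1. It was 0.57 for CRELD2, 0.52 for GAS5, 0.52 for LGALS1, 0.51 for SHMT2, 0.50 for SLC7A5, 0.45 for ATF4, 0.38 for COX6C and 0.36 for SLC3A2. It was 0.35 for MT-CO1, 0.31 for SNHG29, 0.29 for ZFAS1, 0.28 for RPL10, 0.19 for RPS6 and 0.15 for RPL13A. The difference was negative in 21 genes: -6.96 for NSG1, -3.73 for CDKN1C, -3.20 for IL32, -2.43 for MBD5, -1.73 for SFN, -1.19 for DUSP1, -1.0 for CDKN1A and -0.98 for S100A6. It was -0.91 for ANXA2, -0.81 for CREB3L1, -0.74 for HSPA8, -0.66 for ACTG1, -0.50 for GPX1, -0.49 for RXRA, -0.43 for MT-RNR2 and -0.41 for NDUFA9. It was -0.33 for PRDX1, -0.28 for GSTP1, -0.19 for SOX4, -0.16 for HSP90B1 and -0.13 for PDIA4. Where both changes are negative, a positive difference is a smaller fall in SNU16. VIM (adjusted p of the difference 0.0407) rose by 3.03 in AGS and fell by 1.49 in HGC27, so the mean of the other lines joins opposite changes. The means of further genes do so too, HSPA8, ACTG1, MUC1, BIRC3, MKRN3 and CREB3L1 among them. LGALS1 has a positive difference, yet it rose by 3.82 in SNU719 and 3.68 in YCCEL1 against 2.33 in SNU16. The sizes for NSG1, VIM and CDKN1C rest in part on the added 1, since some of their values are near 0. No group had the 4 libraries needed for a check of single outlying libraries.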

How the results depend on the processing

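Direction was checked for the genes named by the rule, and none that passed changed direction under the alternatives. The median log2 change over all genes went from 0.013 to -0.012 with an SNU16 mean of at least 10. A pseudocount of 5 gave 217 genes higher and 9 lower by more than 2, and 67 larger and 202 smaller than in the other lines. With an SNU16 mean of at least 10 these were 279, 15, 92 and 264. Without the limit on size, 799 then rose and 717 fell. The SNU16 libraries alone, where 2 against 2 libraries give the spread, gave 191 and 15 past the limit and 456 and 208 without it. In that fit 127 of the genes named by the rule no longer passed. MUC1, VIM, AXIN2, FGFR4, PLEKHG4, NSG1, RPLP0, HSPA8, ACTG1, GAPDH and MT-CYB were among them. Without a trend 295 fell, and with equal totals 388 fell. A limit of 1 in place of 2 gave 952 higher and 84 lower. Leaving out 1 SNU16 library gave 474 to 548 higher and 36 to 52 lower past the limit, 743 to 848 and 365 to 390 without it, and 146 to 162 larger and 477 to 510 smaller than in the other lines. Same-numbered SNU16 libraries did not deviate together in the normalized values (r of -0.00163). This cannot show whether they were cultured or handled as pairs, and the main fit used no pairing. A fit with the replicate block gave 809 higher and 413 lower. Equal medians raised the share of changed genes that rose from 65.7% to 72.9%. The filter at an SNU16 mean of 10 lowered that share to 52.7%. The causes of these shifts were not tested. Normalized values carry no read depth, so low genes have no counting error here.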
